A study of Rattus norvegicus with 24 samples.

Results

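The genes described here are 10 genes of TNF receptor signalling and the NF-κB pathway: the receptors Tnfrsf1a, Tnfrsf1b and Ltbr, the Rel family genes Nfkb1, Nfkb2, Rela and Relb, and the inhibitors and feedback genes Nfkbia, Tnfaip3 and Birc3. They were chosen by name from 25650 gene names at 26641 named loci, and each name had 1 locus. The RNA came from male adult Sprague-Dawley rats 3 months after surgery. TBI rats (n = 6) had received a lateral fluid-percussion injury, a pressure pulse onto the exposed dura, and had been picked by magnetic resonance imaging for signs of inflammation around the lesion. Sham-operated rats (n = 6) had the anaesthesia and the whole operation, craniectomy included, without the impact. Perilesional cortex and ipsilateral thalamus were taken from the same 12 rats, which gave 24 messenger RNA libraries of bulk tissue in 4 groups: sham cortex, TBI cortex, sham thalamus and TBI thalamus. The TBI groups stand for injured rats with this imaging sign and not for all injured rats.

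TNF and lymphotoxins bind receptors of the TNF receptor family. Their adaptor proteins and kinases release NF-κB dimers from inhibitor proteins, so that the dimers enter the nucleus and start transcription. In the canonical branch the dimer of Rela and the Nfkb1 product is held by the product of Nfkbia, and in the noncanonical branch the precursor made from Nfkb2 is processed and pairs with Relb. Several genes of the pathway, Nfkbia, Tnfaip3, Birc3, Nfkb2 and Relb among them, are themselves known NF-κB targets, and in the injured brain the pathway is known from microglia, astrocytes and endothelium.

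At 3 months after injury, 9 of the 10 genes were higher in TBI cortex and 7 of 10 in TBI thalamus than in the same region of sham-operated rats, and none was lower. The changes were modest, between 1.12-fold and 1.79-fold where they passed the test. The exception in both regions was Tnfaip3, which had log2 fold changes of -0.08 in the cortex and 0.03 in the thalamus. Across all named loci tested, 14.3% were called higher in the cortex and 14.5% in the thalamus, and 14.9% and 20.9% were called lower. The median log2 fold change of the 10 genes was 0.48 in the cortex, where that of all loci was -0.01, and 0.54 in the thalamus, where that of all loci was -0.02. Under TMM and upper quartile scaling the thalamic count was 9 of 10 in place of 7. The share of all called thalamic loci that were lower also moved, from 59.0% to 45.7% under TMM scaling. All 10 genes passed the filter on low values in every comparison.

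Values are normalized counts, that is, numbers of fragments per locus after scaling every library by its own size factor. The libraries held 30568928 to 54608919 fragments. Fold changes are on the log2(normalized count + 1) scale, from limma fitted to all named loci with a mean of at least 10, and a gene was called at a Benjamini-Hochberg adjusted p under 0.05. The files give no gene lengths, so levels are compared between groups and not between genes. The regions carried their own markers: summed counts of 5 cortical genes were 13210 to 15320 in sham cortex and 157.6 to 247.9 in sham thalamus, and all 6 thalamic genes on the list were higher in sham thalamus. Microglial and neuronal markers differed between TBI and sham, and choroid plexus markers stood high in single libraries, with values given beside the results.

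The windows shown next are stretches of the members' promoters that hold letters matching the NF-κB binding consensus, a pattern of 10 letters known as the kappaB site. Promoters came from RefSeq on the GRCr8 build (250 bases before to 50 after the start of a gene), where 8 of the 10 genes had an entry. Of these 8, 4 matched on either strand, which was the case for 1400 of all 33469 promoters (4.18%). The genes with a match were Nfkb1, Nfkb2, Nfkbia and Tnfaip3, and those without one were Tnfrsf1a, Tnfrsf1b, Ltbr and Rela. Capitals mark the matching letters, each window is written 5′ to 3′ on the strand of its gene, and a match is a description of letters only.
Nfkb1 (chr2:226805440-226805469, minus strand): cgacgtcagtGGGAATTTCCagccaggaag
Nfkb2 (chr1:255108344-255108373, plus strand): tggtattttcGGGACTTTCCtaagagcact
Nfkbia (chr6:78597084-78597113, minus strand): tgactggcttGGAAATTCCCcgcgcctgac
Tnfaip3 (chr1:15544130-15544159, minus strand): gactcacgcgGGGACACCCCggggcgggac
Tnfaip3 (chr1:15544021-15544050, minus strand): gactGGAAAGTCCCtcGGAAATCCCCctgt

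Tnfaip3 held 3 matches in its promoter, a pair of them in the last window, and the other matching genes held 1 each.

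The receptors were compared first. All 3 rose in both regions, and for each of them every TBI rat lay above every sham-operated rat of the same region. Over all loci tested, 7.02% in the cortex and 7.46% in the thalamus had every TBI value above every sham value.

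Tnfrsf1a, at position 224881429 to 224910903 of chromosome 4 in the deposited table, encodes the widely expressed death domain receptor of TNF. Its normalized counts were 422.0 to 504.8 (median 463.2) in sham cortex and 594.0 to 927.6 (median 696.5) in TBI cortex. In sham thalamus they were 389.8 to 514.6 (median 419.9), and in TBI thalamus 699.4 to 1034 (median 741.3). The lowest TBI rat of either region thus lay above the highest sham-operated rat, and the highest value in both regions belonged to rat 45. The change was 1.54-fold in the cortex (log2 fold change 0.62 ± 0.093 SE, where SE is the standard error, adjusted p = 0.000264 by limma) and 1.79-fold in the thalamus (log2 fold change 0.84 ± 0.0999 SE, adjusted p = 2.70e-05 by limma). This thalamic adjusted p was the smallest among the 10 genes.

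Tnfrsf1b (chromosome 5, 166812969 to 166845910) encodes the second TNF receptor, which lacks a death domain and is known from immune cells, microglia included. Its normalized counts were 135.8 to 167.6 (median 158.0) in sham cortex against 183.3 to 247.4 (median 223.1) in TBI cortex. The thalamic counts were 110.8 to 179.5 (median 133.1) in sham-operated and 227.2 to 277.4 (median 235.7) in TBI rats. The groups did not overlap in either region. The log2 fold change was 0.50 in the cortex (SE 0.092, adjusted p = 0.00107 by limma) and 0.82 in the thalamus (SE 0.119, adjusted p = 0.000138 by limma).

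Ltbr, which lies near Tnfrsf1a on chromosome 4 (224839882 to 224847578), encodes the lymphotoxin beta receptor, an activator of the noncanonical branch. Counts ran from 501.6 to 680.9 (median 567.6) in sham cortex and from 690.5 to 1079 (median 841.1) in TBI cortex. They ran from 631.8 to 925.2 (median 832.6) in sham thalamus and from 928.3 to 1474 (median 1131) in TBI thalamus. The lowest TBI thalamus library was just above the highest sham one. The log2 fold changes were 0.54 in the cortex (SE 0.106, adjusted p = 0.0018 by limma) and 0.48 in the thalamus (SE 0.113, adjusted p = 0.00426 by limma).

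**Figure D1:**
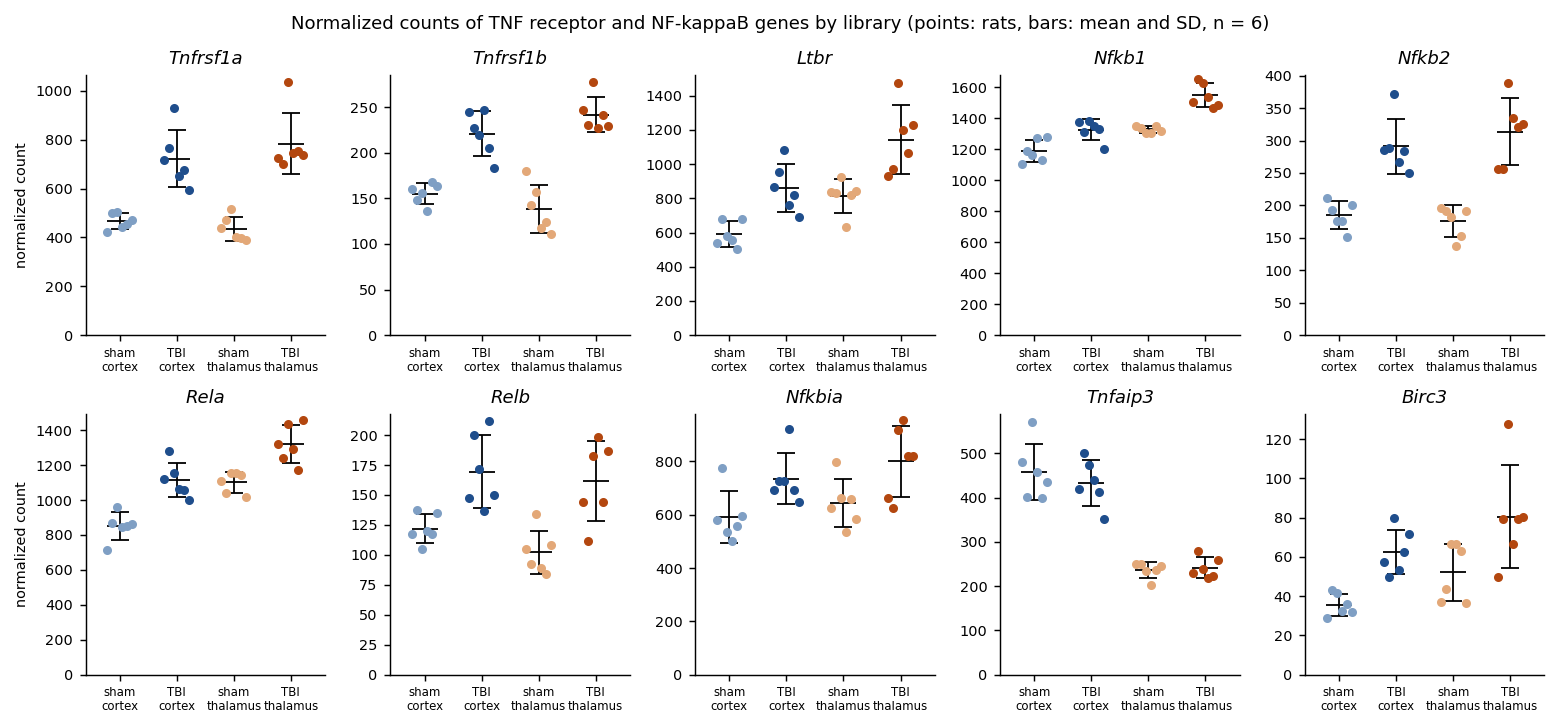
Normalized counts (y axis, from 0) of the 10 genes in the 24 libraries, by group. Points are rats and bars are the mean and SD (n = 6); for Tnfrsf1a, Tnfrsf1b, Ltbr, Nfkb2 and Rela all TBI points of a region lie above its sham points, and Tnfaip3 is separated by region only.

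The Rel family genes encode the subunits of NF-κB itself. All 4 rose in both regions. The largest changes among them were those of Nfkb2 and Relb, the noncanonical subunits, in both regions, and the smallest that of Nfkb1 in both.

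Nfkb2 (chromosome 1, 273483942 to 273490197) had normalized counts of 151.9 to 212.1 (median 184.7) in sham cortex and 250 to 372.1 (median 285.2) in TBI cortex. In the thalamus the counts were 136.9 to 196.7 (median 186.9) in sham-operated and 255.5 to 389.1 (median 323.4) in TBI rats. Both regions showed a gap between the groups. The change was 1.57-fold in the cortex (log2 fold change 0.65 ± 0.105 SE, adjusted p = 0.000443 by limma) and 1.78-fold in the thalamus (log2 fold change 0.83 ± 0.125 SE, adjusted p = 0.00018 by limma).

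Relb (chromosome 1, 81783102 to 81810820) had counts of 104.7 to 137.2 (median 118.5) in sham cortex and of 136.3 to 211.4 (median 160.8) in TBI cortex. In sham thalamus the counts were 84.05 to 134.0 (median 98.68), and in TBI thalamus 111.3 to 198.1 (median 163.7). Of the 6 TBI rats 5 exceeded every sham-operated rat in each region, with rat 52 the exception in the cortex and rat 24 in the thalamus. The log2 fold change was 0.46 in the cortex (SE 0.120, adjusted p = 0.00986 by limma) and 0.65 in the thalamus (SE 0.156, adjusted p = 0.00517 by limma).

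Rela (chromosome 1, 227928091 to 227938585), the main transactivating subunit of the canonical branch, had normalized counts of 713.7 to 962.4 (median 856.0) in sham cortex and 1001 to 1282 (median 1094) in TBI cortex. The counts were 1017 to 1155 (median 1126) in sham thalamus and 1175 to 1457 (median 1307) in TBI thalamus. The groups did not overlap in either region, though the distance between them was small in the thalamus. Log2 fold changes were 0.39 in the cortex (SE 0.074, adjusted p = 0.00143 by limma) and 0.26 in the thalamus (SE 0.062, adjusted p = 0.00519 by limma).

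Nfkb1 (chromosome 2, 259330380 to 259422588), the precursor gene of the other canonical subunit, moved least of the called genes. Its normalized counts were 1102 to 1278 (median 1175) in sham cortex, 1201 to 1384 (median 1340) in TBI cortex, 1305 to 1352 (median 1327) in sham thalamus and 1467 to 1653 (median 1520) in TBI thalamus. The thalamic groups were apart, whereas in the cortex rat 63 fell among the sham-operated rats. The change was 1.12-fold in the cortex (log2 fold change 0.16 ± 0.054 SE, adjusted p = 0.0399 by limma) and 1.16-fold in the thalamus (log2 fold change 0.22 ± 0.044 SE, adjusted p = 0.00169 by limma). The cortical call was near the threshold, and it was lost when any of 9 of the 12 libraries was left out, all but those of sham rats 38 and 55 and TBI rat 63 (adjusted p up to 0.0943).

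Nfkbia, Tnfaip3 and Birc3 are induced by NF-κB and act back on the pathway. They did not move alike: Birc3 and Nfkbia rose in the cortex, and Tnfaip3 passed the test in neither region.

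Birc3 (chromosome 8, 6014385 to 6058253) encodes a ubiquitin ligase bound to TNF receptor complexes. Its neighbour Birc2 was deposited with the same span and had means of 1639 in sham cortex and 1619 in TBI cortex. How fragments were divided between these genes is therefore uncertain. Birc3 had the largest cortical change among the 10 genes. Its normalized counts were 29.06 to 42.88 (median 34.13) in sham cortex and 49.90 to 79.85 (median 59.96) in TBI cortex, without overlap. This was a change of 1.73-fold (log2 fold change 0.79 ± 0.152 SE, adjusted p = 0.00156 by limma). In the thalamus the counts were 36.60 to 66.39 (median 53.28) in sham-operated rats and 49.71 to 128.0 (median 79.30) in TBI rats. Of the 6 TBI rats 5 lay above all sham-operated rats, and the highest was rat 45. The thalamic log2 fold change of 0.61 (SE 0.227, adjusted p = 0.0504 by limma) did not pass the threshold. Over the alternatives tried this adjusted p ran from 0.0164 to 0.115.

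Nfkbia (chromosome 6, 85803990 to 85807223) encodes the inhibitor that holds the canonical dimer in the cytoplasm. Counts were 502.7 to 777.0 (median 568.2) in sham cortex and 648.8 to 923.2 (median 710.9) in TBI cortex. A single high sham library, that of rat 32, overlapped with the TBI group. In sham thalamus the counts were 534.2 to 799.4 (median 641.5), and in TBI thalamus 627.2 to 955.9 (median 819.1). The log2 fold change was 0.32 in the cortex (SE 0.103, adjusted p = 0.0294 by limma) and 0.31 in the thalamus (SE 0.116, adjusted p = 0.0516 by limma). The cortical call was lost when any of 5 libraries was left out, those of sham rats 26, 34, 38 and 50 and of TBI rat 52 (adjusted p up to 0.0711). The thalamic adjusted p ran from 0.0192 to 0.11 over the alternatives.

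Tnfaip3 (chromosome 1, 15952318 to 15967230) encodes a ubiquitin editing enzyme that ends TNF receptor signalling. Its counts were 399.9 to 570.8 (median 446.5) in sham cortex and 352.4 to 500.7 (median 429.4) in TBI cortex, and 202.3 to 250.5 (median 241.4) in sham thalamus and 218.8 to 280.0 (median 234.0) in TBI thalamus. TBI and sham values were interleaved in both regions. The log2 fold change was -0.08 in the cortex (SE 0.0999, adjusted p = 0.592 by limma) and 0.03 in the thalamus (SE 0.087, adjusted p = 0.822 by limma).

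**Figure D2:**
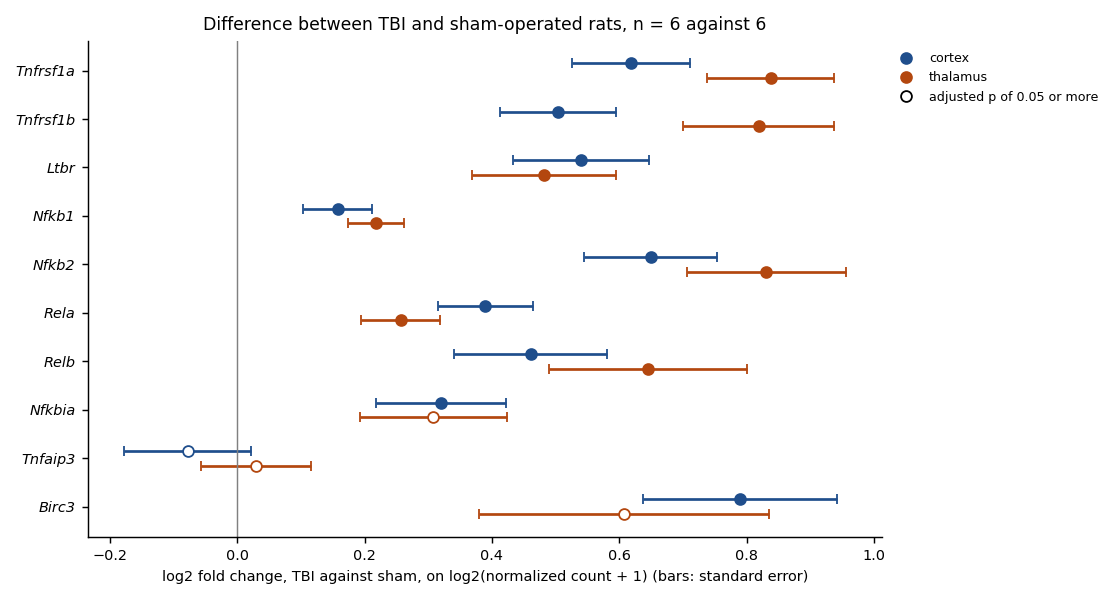
Log2 fold change (x axis, TBI against sham on log2(normalized count + 1)) of each gene (y axis) in cortex and thalamus. Points are limma estimates with bars of 1 standard error, n = 6 against 6, filled where the adjusted p was under 0.05; 9 cortical and 7 thalamic points are filled, and both points of Tnfaip3 lie near 0.

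Whether the TBI effect differed between thalamus and cortex was tested by the interaction term of a fit to all 24 libraries. None of the 10 genes was called, where 7.26% of all loci were called in either direction, and edgeR on the recovered fragments also called 0. At an unadjusted p under 0.05 there was 1, Tnfrsf1b, whose log2 fold change was larger in the thalamus by 0.32 (SE 0.148, adjusted p = 0.206 by limma). Tnfrsf1a gave an interaction log2 value of 0.22 (SE 0.141, adjusted p = 0.379 by limma). That Birc3 and Nfkbia were called in the cortex alone is therefore not shown to be a difference between regions (interaction log2 values -0.18 and -0.01, SE 0.277 and 0.162, adjusted p = 0.754 and 0.977 by limma).

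The levels of several genes differed between the regions themselves. Regions of the same rat were not paired in these fits. In sham-operated rats Ltbr, Nfkb1, Rela and Birc3 were higher in the thalamus than in the cortex and Tnfaip3 was lower. Of all loci, 33.9% were called higher in sham thalamus and 28.3% lower, so these counts of 4 and 1 among 10 genes are near or under the background. Tnfaip3 had the smallest adjusted p of the 10 genes, with a log2 difference of -0.94 (SE 0.092, adjusted p = 2.50e-07 by limma). The log2 differences of Ltbr, Rela, Nfkb1 and Birc3 were 0.46, 0.38, 0.16 and 0.51 (adjusted p = 0.000597, 0.000128, 0.00765 and 0.0303 by limma). The Birc3 difference lost its call when any of 6 libraries was left out, sham cortex of rats 26, 38 and 55 and sham thalamus of rats 34, 38 and 50 (adjusted p up to 0.0705).

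In TBI rats Ltbr, Nfkb1 and Rela were higher in the thalamus, by 0.40, 0.22 and 0.24 on the log2 scale, and Tnfaip3 was lower by a difference of -0.84 (adjusted p = 0.0112, 0.00192, 0.00843 and 2.84e-06 by limma). Of all loci, 31% were called higher and 26.5% lower in this comparison.

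Ordered by their group means, Tnfrsf1a, Tnfrsf1b and Nfkb2 ran sham thalamus, sham cortex, TBI cortex, TBI thalamus. For these genes the only neighbours in that order whose ranges did not overlap were sham cortex and TBI cortex. Ltbr, Nfkbia and Birc3 ran sham cortex, sham thalamus, TBI cortex, TBI thalamus, with every neighbouring pair of ranges overlapping. Rela had the same order, and its sham cortex range was apart from that of sham thalamus. Nfkb1 ran sham cortex, TBI cortex, sham thalamus, TBI thalamus, with a gap only before TBI thalamus. For Relb the order was sham thalamus, sham cortex, TBI thalamus, TBI cortex with all neighbours overlapping, and Tnfaip3 had a gap between the thalamic groups and the cortical groups.

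Unequal change of 2 genes was followed by their ratio within a library, which does not depend on the scaling between libraries. Such a ratio is one of RNA levels and does not measure the activity of either branch. The log2 ratio of Nfkb2 to Nfkb1 was -2.19 ± 0.15 (SD, n = 6) in TBI cortex and -2.68 ± 0.18 (SD, n = 6) in sham cortex. In the thalamus it was -2.31 ± 0.25 (SD, n = 6) in TBI and -2.93 ± 0.21 (SD, n = 6) in sham-operated rats. All 6 TBI values lay above all sham values in both regions. The ratio was 1.41-fold higher in TBI cortex and 1.53-fold higher in TBI thalamus (two-sided exact permutation test, p = 0.002165 in each region, the smallest p that 924 splits allow, adjusted p = 0.00866 over 8 ratios tested). A ratio shows that the genes changed unequally, not which of them moved.

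The ratio of Relb to Rela was higher by 0.39 on the log2 scale in TBI thalamus, where 4 of 6 TBI rats exceeded all sham-operated rats (exact permutation p = 0.02597, adjusted p = 0.0693). In the cortex the difference was 0.07 (exact permutation p = 0.606). The ratios of Tnfrsf1b to Tnfrsf1a and of Nfkbia to Rela differed by -0.12 to 0.05 in the regions, with exact permutation p from 0.329 to 0.866. For these the TBI and sham values overlapped.

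**Figure D3:**
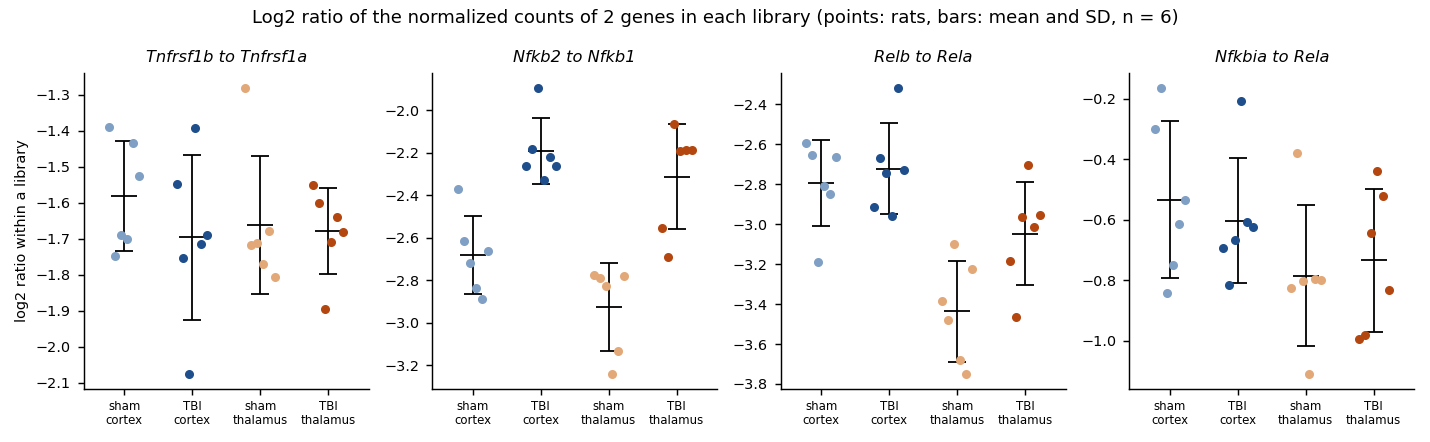
Log2 ratio of the normalized counts of 2 genes within each library (y axis) by group. Points are rats, bars the mean and SD (n = 6); only for Nfkb2 to Nfkb1 are all TBI points of both regions above the sham points.

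The TBI values of single rats were not spread evenly. Rat 45 had the highest normalized count of the 6 TBI rats for 5 of the 10 genes in each region. Rat 63 had the lowest for 8 of 10 in TBI cortex, and for none of them in TBI thalamus. Without the library of rat 45, 8 of 10 genes were called higher in the cortex and 7 of 10 in the thalamus, and without the cortical library of rat 63, 9 of 10. The library of rat 45 also stood apart by choroid plexus markers (Ttr and 5 others), with summed counts of 31420 (cortex) and 253500 (thalamus) beside TBI medians of 980.3 and 1343. Sums of this kind were also high in sham-operated rats, up to 23200 in sham cortex and 106100 in sham thalamus. Rat 45 also had the highest endothelial marker sums of the 6 TBI rats (22110 in the cortex, 23280 in the thalamus). Its neuronal sum in TBI thalamus was the lowest (211000). In TBI cortex rat 63 had the lowest microglial sum (33820) and the highest neuronal sum (390900) of the 6. The order of the rats was not alike in TBI thalamus. There rat 63 had the highest microglial sum (66510) and the highest count for 1 of the 10 genes. Rat 45 ranked 4 of 6 by microglial sum (58190), and rat 24, lowest for 4 of the 10 genes, ranked 2 (65930).

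Markers of other cell types moved with the same comparison. Of 14 microglial markers 13 were higher in TBI cortex and 14 in TBI thalamus. Their summed counts were 24120 to 26580 in sham cortex, 33820 to 39340 in TBI cortex, 26070 to 34550 in sham thalamus and 53540 to 66510 in TBI thalamus, and none of the markers was at 0 in any group. The ratio of the mean sums, TBI to sham, was 1.44 in the cortex and 1.97 in the thalamus, beside 1.12 to 1.73 and 1.16 to 1.79 for the called genes of the pathway. Of 10 neuronal markers 8 were lower in each region, with ratios of the mean sums of 0.777 and 0.742. Of 9 astrocyte markers 5 were higher in each region, and 2 were lower in the cortex. The ratios of their mean sums were 1.097 in the cortex and 1.475 in the thalamus. Of 8 endothelial markers 1 was higher in the cortex, near the share of 14.3% over all loci, and 3 in the thalamus. Their ratios were 1.038 and 1.144. In bulk tissue more cells of a type and more RNA per cell cannot be told apart, and the part of these markers in the results was not tested.

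**Figure D4:**
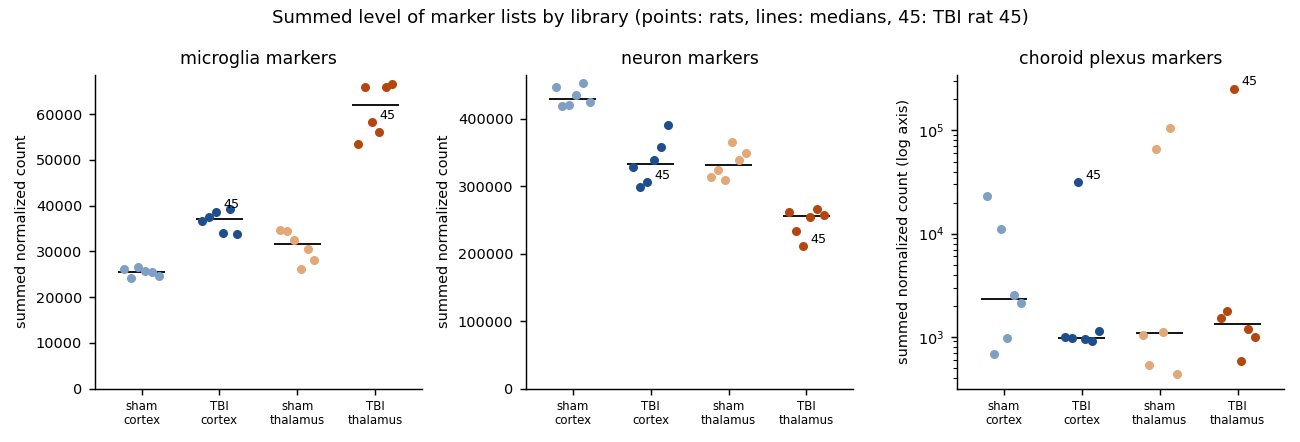
Summed normalized counts of marker lists (y axis, logarithmic for choroid plexus) by library and group. Points are rats, lines medians, and 45 marks TBI rat 45; microglial sums of TBI rats lie above those of sham-operated rats in both regions, and choroid plexus sums are high in few libraries of each group.

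The remaining genes of the pathway were followed in 7 lists by role. Of 61 tested in the cortex 21 were higher and 6 lower, and of 62 tested in the thalamus 26 were higher and 6 lower, where of all loci 14.3% were higher and 14.9% lower in TBI cortex, and 14.5% higher and 20.9% lower in TBI thalamus. Their median log2 fold changes were 0.17 and 0.27. The counts of lower genes were under the shares over all loci, for the lists together and for the upstream kinases. Adaptors that sit at the receptors rose in part: Ripk1, Casp8 and Traf1 were called higher in both regions, Fadd in the cortex and Traf5 in the thalamus, and Traf3, an inhibitor of the noncanonical branch, was lower in the cortex (log2 fold change -0.24 ± 0.075 SE, adjusted p = 0.0283 by limma). Among 10 upstream kinases 3 were higher in each region, while 1 was lower in TBI cortex (Tab3, log2 fold change -0.22, adjusted p = 0.0476 by limma) and 2 in TBI thalamus (Map3k14 and Tbk1). Of 7 genes on the list of ubiquitin editing, Rnf31, which shares a locus name with Irf9, and Tnip2 were the only ones called higher in either region. On this list 1 gene was called lower in TBI thalamus, where Cyld had 4051 to 5079 counts beside 5067 to 5867 in sham thalamus.

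Of 10 ligands of the family, Tnf, Ltb, Tnfsf10 and Tnfsf12 passed the filter in the comparisons of TBI with sham. Tnfsf12 (TWEAK), a ligand acting on the noncanonical branch, was called higher in the cortex (log2 fold change 0.27 ± 0.090 SE, adjusted p = 0.033 by limma) and in the thalamus (0.41 ± 0.068 SE, adjusted p = 0.000424 by limma). Ltb, a subunit of the ligand of Ltbr, had 12.01 to 20.45 normalized counts in sham cortex and 15.41 to 29.39 in TBI cortex (log2 fold change 0.59 ± 0.202 SE, adjusted p = 0.0376 by limma), and in the thalamus its log2 fold change was 0.34 (adjusted p = 0.429 by limma). Tnfsf10, a death ligand, was called higher in the thalamus (0.34, adjusted p = 0.0209 by limma) and had a log2 fold change of 0.21 in the cortex (adjusted p = 0.236 by limma).

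Tnf itself was higher in neither region. At its locus with the higher mean, counts were 11.46 to 25.93 in sham thalamus and 3.044 to 17.12 in TBI thalamus, and 4 of 6 TBI rats were below all sham-operated rats (log2 fold change -1.06 ± 0.347 SE, adjusted p = 0.0275 by limma). Its TBI thalamus mean was 9.648, so it passed the filter there only through the sham group. In the cortex TBI values ran from 0.808 to 28.03 and sham values from 4.306 to 29.03 (log2 fold change -0.42 ± 0.609 SE, adjusted p = 0.639 by limma). The deposited table gives Tnf, Lta and Ltb the same span on chromosome 20 (6835554 to 7019717), so how fragments were divided among these neighbours is uncertain.

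The largest rises of the lists in both regions included Bcl3 and Ccl2. Bcl3 encodes an I-κB family protein that works in the nucleus, and it had 17.01 to 33.45 counts in sham cortex and 47.62 to 101.9 in TBI cortex. The thalamic counts were 11.68 to 33.80 in sham-operated and 72.14 to 131.1 in TBI rats. The log2 fold changes of Bcl3 were 1.43 (SE 0.222, adjusted p = 0.000342 by limma) and 2.02 (SE 0.240, adjusted p = 2.52e-05 by limma). Every TBI rat lay above every sham-operated rat. Ccl2, a chemokine for monocytes, rose by log2 fold changes of 1.42 in the cortex and 2.01 in the thalamus (SE 0.343 and 0.419, adjusted p = 0.0065 and 0.002 by limma). Its sham means were 9.134 and 5.61, so it passed the filter only through the TBI groups. Lcn2, which encodes a secreted iron carrier of reactive astrocytes, was the next rise in the cortex (1.29 ± 0.246 SE, adjusted p = 0.00143 by limma).

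In the thalamus the largest log2 fold change of the lists was that of Tnfrsf13c, the receptor of the B cell survival factor, with 1.051 to 9.546 normalized counts in sham and 39.22 to 77.00 in TBI rats (log2 fold change 3.15 ± 0.369 SE, adjusted p = 2.31e-05 by limma). Its mean in sham thalamus was 6.706, so it passed the filter only through the TBI group, where it is high. The largest falls in the cortex were those of Tnfrsf9, a costimulatory receptor (-1.01), Ptgs2, the inducible prostaglandin synthase (-0.41), and Tnfrsf11b, a soluble decoy receptor (-0.37), with adjusted p = 0.00142, 0.00906 and 0.0405 by limma. In the thalamus 6 genes of the lists were called lower, and the largest falls after Tnf were those of Map3k14, the kinase that activates the noncanonical branch (-0.35 ± 0.057 SE, adjusted p = 0.000301 by limma), and Tbk1 (-0.28 ± 0.065 SE, adjusted p = 0.00469 by limma). Map3k14 had 879.2 to 1039 counts in sham thalamus and 686.0 to 787.1 in TBI thalamus, where Nfkb2 rose.

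Of 13 textbook NF-κB targets tested, 6 were higher and 2 lower in TBI cortex, and 8 higher and 1 lower in TBI thalamus. The shares over all loci were 14.3% higher and 14.9% lower in TBI cortex, and 14.5% and 20.9% in TBI thalamus. The counts of lower targets were thus near or under the background. Icam1, Ccl2, Bcl2a1, Csf1, Irf1 and Lcn2 were called higher in both regions, where Ccl2 passed the filter only through the TBI groups. Vcam1 and Il1b were called higher in the thalamus, where Il1b passed the filter only through the TBI group (sham mean 9.291). Sod2, the mitochondrial superoxide dismutase, was called lower in both regions (log2 fold changes -0.23 and -0.25). The other Rel and I-κB genes gave 1 higher call of 6 in the cortex, Bcl3, which is near the share of 14.3% over all loci. In the thalamus 3 of 6 were called higher, Bcl3, Rel and Nfkbiz.

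**Figure D5:**
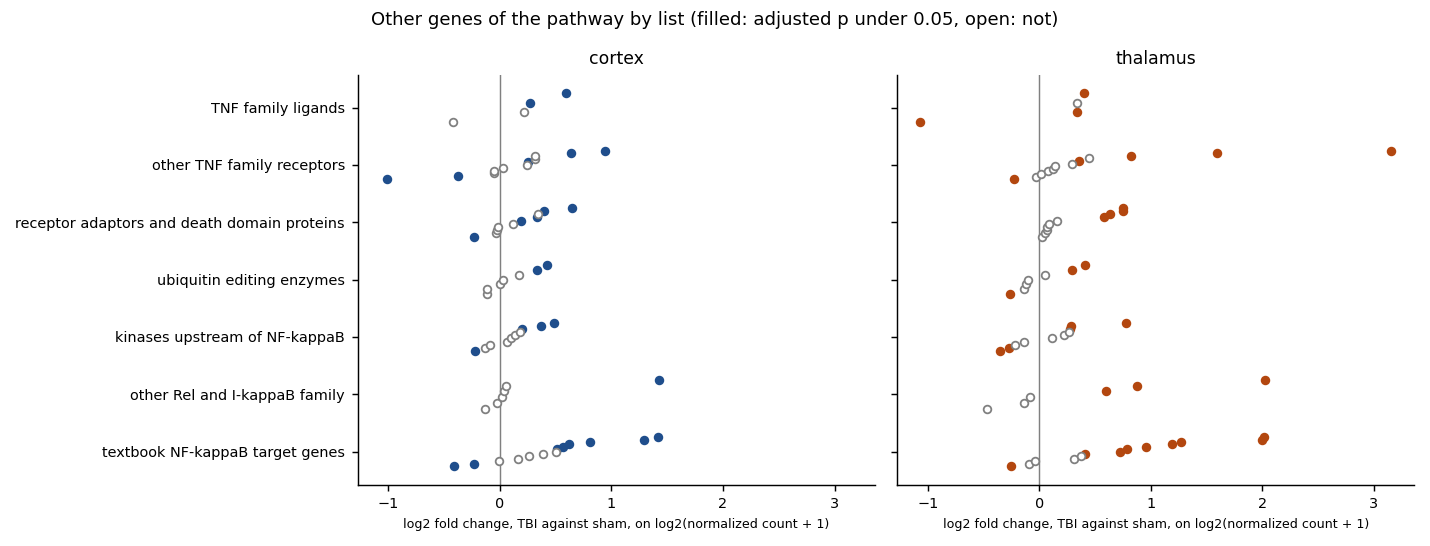
Log2 fold change, TBI against sham on log2(normalized count + 1) (x axis), of the tested genes in 7 lists (y axis), in cortex and thalamus. Each point is a gene, filled where the adjusted p was under 0.05; in the cortical panel 21 filled points lie right of 0 and 6 left of it, in the thalamic panel 26 and 6, with Tnfrsf13c farthest right.

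For the 7 genes called in both regions, the 3 loci of 15678 with the most similar values were found by the root mean square difference of centred log2 values over the 24 libraries, which include the differences between groups. Tnfrsf1a was nearest to Athl1 (0.109), Icoslg (0.122) and Clic1 (0.133). Tnfrsf1b was nearest to RAB7B (0.149), Icoslg (0.15) and NEK6 (0.157), and Nfkb2 to Clic1 (0.146), Tnfrsf1a (0.153) and Icoslg (0.155). Icoslg, which encodes a costimulatory ligand of the immune system, was thus among the nearest 3 of both TNF receptors and of Nfkb2. Ltbr was nearest to Homer3 (0.103), Sorbs3 (0.116) and Plcb3 (0.128), and Rela to Arap1, Tns3 and Mocs1 (0.0982 to 0.116). Nfkb1, whose own spread was small, had Tab2 and Ppp4r1 among its nearest (0.0769 and 0.0772), and Relb to Slc24a6, Ppp1r18 and Slc15a3 (0.196 to 0.204).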

How the data were processed

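Stranded libraries of polyadenylated RNA were sequenced by the authors, who aligned with TopHat2 2.0.11 and Bowtie2 2.2.2, assembled transcripts with Cufflinks 2.2.1 and deposited 1 table of signal values: fragment counts per locus scaled with one size factor per library, called normalized counts here. Their methods name the RGSC3.4 genome with the Rnor_5.0 annotation and the labels name Rnor_5.0, so locus positions are given as deposited and their build is uncertain. Low values were whole multiples of 1 step (within 0.02 of a whole number) for 100% of low values in all 24 libraries, which gave back the fragment counts. The library of sham thalamus rat 55 was left out of the count test, as its step (0.989) was near 1. Those of TBI thalamus rats 22 and 45, with steps of 1.01 and 1.02, were kept.

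Loci without a gene name (15693 of 42334, holding 1.9% to 2.23% of a library) were left out. TBI and sham were compared within each region with limma 3.58.1 in R 4.3.3 (lmFit, eBayes with a trend) on log2(normalized count + 1) for named loci with a mean of at least 10, adjusted by Benjamini-Hochberg over all loci and called under 0.05. The interaction used all 24 libraries without a block. The comparisons of thalamus with cortex, within sham or within TBI rats, also had no block, so the regions of a rat were treated as unpaired. Ratios were compared by two-sided exact permutation tests over 924 splits, adjusted over 8 tests. Alternatives were other scalings, filters, pseudocounts and thresholds, 1 joint fit, each library left out and the rat as a block. edgeR 4.0.16 on the recovered counts and leaving out both libraries of rat 45 were added after seeing the data.

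The rat numbers in the labels show that each rat gave both regions. Deviations from the group means, correlated between the pair of libraries of a rat, had a median coefficient of 0.187 (0.00393 to 0.569, 10 of 12 over 0.1), against -0.0332 for different rats. Members and gene lists were chosen with earlier results of these data known. Named were all 10 members, every tested ligand, the 3 largest rises and falls of the pathway lists per region, and the 3 nearest loci of members called in both regions. Other names were chosen after their values were seen, and a few items that the rule or lists hold are not reported here. Mbp, Cd79a, Bcl11b and Cflar had no locus. Python 3.11.15 was used with pandas 2.3.3, scipy 1.17.1 and, for figures, matplotlib 3.10.9. The limma fits were tested on simulated data with known changes.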

Additional observations from a re-analysis of the deposited data

Results flagged for a closer look

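In 56 sets of 6 libraries (a gene or a ratio in a group) the most extreme library was compared with the range of its group, and 9 stood far from the other 5; chance gives about 1 in 20. In TBI rat 45 Tnfrsf1a had 1034 normalized counts in the thalamus where the others had 699.4 to 754.1, and Nfkb2 had 372.1 in the cortex where the others had 250 to 287.8. The log2 ratio of Nfkb2 to Nfkb1 in TBI cortex had a highest value of -1.89 beside -2.33 to -2.18. In sham thalamus rat 38 had low values of Ltbr (631.8, others 816.3 to 925.2) and Tnfaip3 (202.3, others 232.9 to 250.5). Nfkbia was high in sham cortex of rat 32 (777.0, others 502.7 to 594.2) and in TBI cortex of rat 52 (923.2, others 648.8 to 728.0), and the log2 ratio of Nfkbia to Rela in TBI cortex had a highest value of -0.21 beside -0.82 to -0.61. One sham thalamus library had a log2 ratio of Tnfrsf1b to Tnfrsf1a of -1.28, the others -1.81 to -1.68.

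Of 62 pathway genes tested outside the 10 members, 3 had a TBI effect that differed between thalamus and cortex by the interaction test, which is no larger a share than the 7.26% of all loci called. Tnfrsf9 fell in the cortex and its thalamic log2 fold change was 0.14 (difference 1.15 ± 0.275 SE, adjusted p = 0.0115 by limma). Rel, the subunit of NF-κB known from lymphoid and myeloid cells, rose in the thalamus by 0.60 with all 6 TBI rats above all sham-operated rats, and had -0.13 in the cortex (difference 0.73 ± 0.189 SE, adjusted p = 0.0178 by limma). Map3k14 was lower in TBI thalamus and had a log2 fold change of 0.13 in the cortex (difference -0.49 ± 0.149 SE, adjusted p = 0.0467 by limma). Of 14 microglial markers 8 were called with a larger rise in the thalamus in the same test, and their part in these differences was not tested.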

How the results depend on the processing

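Of 1208 log2 fold changes of the 10 genes under alternatives, 1155 kept their direction and their side of the threshold, 24 lost it, 17 gained it and 12 turned in sign, none of the last a called value. At an adjusted p under 0.01 the calls over all loci were 2436 in the cortex (4531 at 0.05), 3429 in the thalamus (5516) and 404 for the interaction (1138). In sham-operated rats 2 genes in place of 1 were called lower in the thalamus under TMM scaling, and 1 to 2 with a library left out, the second being Relb without sham thalamus rat 34. With 1 library left out, 7 to 9 of the genes were called higher in the cortex and 7 to 9 in the thalamus. Nfkbia in the thalamus gained a call under TMM and upper quartile scaling, a mean of at least 50, 1 joint fit, and without sham rat 32, TBI rat 22 or TBI rat 24. Birc3 did so under both scalings, a pseudocount of 5, the joint fit, and without sham rat 34, sham rat 38 or TBI rat 22, and the difference of Birc3 between regions of TBI rats passed without TBI thalamus rat 22 (adjusted p = 0.0498 by limma). The cause was not tested.

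Signs turned as follows with a library left out: Tnfaip3 in the thalamus (-0.0141 to 0.0571), the interaction of Nfkbia (-0.0938 to 0.0551, and 0.0136 under upper quartile scaling) and of Ltbr (-0.135 to 0.0096), Relb between regions in TBI rats (-0.145 to 0.0207), and the ratios of Nfkbia to Rela (-0.149 to 0.0043 in the cortex, -0.0136 to 0.133 in the thalamus), Relb to Rela in the cortex (-0.0105 to 0.118) and Tnfrsf1b to Tnfrsf1a in the thalamus (-0.0477 to 0.0574). The ratio of Relb to Rela in the thalamus was 0.32 to 0.47, past the threshold without sham rat 34 (adjusted p = 0.0404 by exact permutation) or TBI rat 24 (adjusted p = 0.0231). With the rat as a replicate block, 1301 loci were called for the interaction, 9810 between regions in sham and 9395 in TBI rats, and the block changed no call of the 10 genes. edgeR on the recovered fragments, chosen after seeing the data, called 4435 cortical and 4182 thalamic loci, and 9, 7, 0, 5 and 4 of the 10 genes in the 5 comparisons, the same numbers as limma. Planned values for genes under the filter did not arise, since all 10 passed it.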

Other observations

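Tnfrsf13c, a receptor known from B cells, was under the filter in the cortex, with 0 to 3.483 normalized counts in sham-operated and 8.333 to 26.33 in TBI rats. The B cell markers Cd79b and Ms4a1 were low in the same TBI thalamus libraries, with means of 2.693 and 1.79 normalized counts, beside 61.59 for Tnfrsf13c. The gene of its ligand, Tnfsf13b, had 0 to 6.224 in sham thalamus and 8.116 to 18.15 in TBI thalamus. The main fits of TBI against sham left it out, since its mean over their libraries was under 10.

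Other members of the lists were close to the limit of detection. Nos2, the inducible nitric oxide synthase, was listed at 0 in all 24 libraries, so no fragment was counted, which does not show that its RNA was absent. Il6 had at most 7.354 normalized counts and Cd40lg at most 1.376. The lymphocyte list was carried by Cd4, with means of 861.8 in sham thalamus and 2983 in TBI thalamus. Rat microglia and macrophages are known to express Cd4 too.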
